A study of Mus musculus with 10 samples.

Results

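The thrombospondin genes Thbs1, Thbs2, Thbs3, Thbs4 and Comp were followed across 10 libraries of Achilles tendon RNA. They were chosen by name as the members of 1 gene family, and all 5 were found among the 32285 genes of the count table and among the 16017 genes that passed the filter on low counts. The mice were of 3 genotypes, and all of them, controls included, were given tamoxifen at 20 mg/kg at 6 weeks of age and sampled 4 weeks later, at 10 weeks. Mkx codes for Mohawk, a homeodomain regulator of tendon gene expression. The conditional knockout, Mkx-CreER/flox (n = 3 libraries), joined an Mkx-CreER allele, which gives a Cre recombinase switched on by tamoxifen, to an Mkx allele whose flanking loxP sites let Cre remove it. Mkx-CreER/+ mice (n = 3 libraries) had the CreER allele without the floxed one, and Mkx flox/+ mice (n = 4 libraries) had the floxed allele without Cre. The genotype label reads flox/+ while the series text writes Mkx-flox, and it is not settled here if those controls had a single floxed copy. Cre activity is limited to the cells that CreER is made in, and the sources used here do not say if the CreER allele itself disturbs Mkx. Libraries are named by genotype and the column number of the count table.

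Thrombospondins are secreted, calcium-binding glycoproteins of the extracellular matrix. Thbs1 and Thbs2 assemble into trimers, carry type 1 repeats, bind CD36 and CD47 on cells and restrain the growth of blood vessels, and Thbs1 can also activate latent TGF-beta. Thbs3, Thbs4 and Comp (cartilage oligomeric matrix protein, also called thrombospondin-5) lack those repeats and assemble into pentamers. Comp and Thbs4 are prominent in tendon, where they bind collagens and take part in fibril assembly, and Thbs4 also acts inside the endoplasmic reticulum of stressed cells.

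The genes lie on 5 chromosomes of the mouse assembly mm10, with identifiers and positions from GENCODE. Thbs1 (ENSMUSG00000040152) is at chr2:118111876-118127133 on the plus strand, and Thbs2 (ENSMUSG00000023885) at chr17:14665500-14694235 on the minus strand. Thbs3 (ENSMUSG00000028047) is at chr3:89215180-89226837 on the plus strand. Thbs4 (ENSMUSG00000021702) is at chr13:92751590-92794818 on the minus strand, and Comp (ENSMUSG00000031849) at chr8:70373558-70382066 on the plus strand. Values below cover all exons of each gene, UTRs included. Of the exon bases of Thbs3, 6.59% overlap exons of Mtx1 on the other strand, and of those of Thbs1, 3.42% overlap the gene model Gm29233. The sources used here do not give the strand setting of the counting, so reads in these stretches cannot be told apart.

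Promoter windows were matched for 3 of the 5 genes, Thbs2, Thbs3 and Thbs4, and are shown because the first pair fell in the knockout and Thbs4 is the most abundant member. Each is the 250 bases before the RefSeq start in GRCm38.p6 (the assembly called mm10), 5′ to 3′ on the gene's strand. Capitals mark matches, on either strand, to a TATA box (TATAAA), a GC box (GGGCGG) or an E-box (CANNTG). The windows are chr17:14694263-14694512 (minus strand), chr3:89214930-89215179 (plus strand) and chr13:92794819-92795068 (minus strand).
Thbs2: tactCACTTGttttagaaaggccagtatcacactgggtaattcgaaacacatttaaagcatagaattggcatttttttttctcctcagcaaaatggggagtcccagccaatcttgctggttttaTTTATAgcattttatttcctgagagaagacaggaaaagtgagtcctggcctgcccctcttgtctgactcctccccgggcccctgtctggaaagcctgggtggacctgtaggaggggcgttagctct
Thbs3: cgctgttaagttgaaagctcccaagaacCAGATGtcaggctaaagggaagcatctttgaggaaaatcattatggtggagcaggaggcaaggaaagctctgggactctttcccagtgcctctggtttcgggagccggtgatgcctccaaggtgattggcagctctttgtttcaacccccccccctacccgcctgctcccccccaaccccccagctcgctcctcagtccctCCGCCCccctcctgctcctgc
Thbs4: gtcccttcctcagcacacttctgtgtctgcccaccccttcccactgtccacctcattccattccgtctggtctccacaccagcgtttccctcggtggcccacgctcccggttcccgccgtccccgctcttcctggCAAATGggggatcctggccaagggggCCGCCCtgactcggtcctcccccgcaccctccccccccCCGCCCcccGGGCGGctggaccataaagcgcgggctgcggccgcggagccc
The Thbs2 window is the most AT-rich of the 3, with 46.8% G and C, 1 TATA box match beginning 126 bases before the start and no GC box. The Thbs3 window has 58.8% G and C and 1 GC box 21 bases before the start. The Thbs4 window has 70.8% G and C and 3 GC boxes, 89, 51 and 42 bases before it. Each holds 1 E-box, and none holds an AP-1 site (TGANTCA). Of 32851 windows of the same length, 12.4% hold TATAAA, 32.7% a GC box, 66.2% an E-box and 6.75% an AP-1 site. Their median is 52.4% G and C, and 29.8%, 68.9% and 91.7% of them have less than the windows of Thbs2, Thbs3 and Thbs4. Thbs2 and Thbs3, which both fell, share the E-box match, which most windows hold, and differ in the TATA box and GC box matches.

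Libraries were made by RamDA-seq, which copies total RNA from minute samples, and gave 8680934 to 22656417 counts each, where 3 counts correspond to 0.126 to 0.36 CPM (counts scaled to a common library size with edgeR's TMM factors). Mkx, the targeted gene, stood at 26.1, 32.4 and 30.5 CPM in Mkx-CreER/flox 1, 4 and 5, below the 91.4, 93.8 and 93.5 CPM of Mkx-CreER/+ 1, 2 and 4 and the 187, 177, 121 and 153 CPM of Mkx flox/+ 1 to 4. The defining tendon markers were present in every library. Their summed share of counts (12 genes, Mkx among them, with the thrombospondins left out) was 9.69% to 14.3% in Mkx flox/+, 6.23% to 8.10% in Mkx-CreER/+ and 3.66% to 4.50% in Mkx-CreER/flox. Skeletal muscle markers (20 genes) made up 1.68% to 5.24%, 3.2% to 8.23% and 7.6% to 11.9% of counts in the same order, and macrophage markers (12 genes) 0.168% to 0.27%, 0.116% to 0.274% and 0.0634% to 0.0912%. Mitochondrially encoded genes took 1.92% to 2.31% of counts in Mkx flox/+, 2.33% to 4.78% in Mkx-CreER/+ and 3.96% to 8.85% in Mkx-CreER/flox, so every knockout library was above every floxed control. The highest share was that of Mkx-CreER/flox 1, which stood apart and also had the lowest scaling factor, 0.839. In bulk tissue, fewer cells of a type and less RNA per cell cannot be told apart, which holds for every result below. The labels do not say that each library came from a separate animal, so the p-values measure the spread between these libraries.

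Thbs4 was the leading thrombospondin transcript of tendon, and Thbs3 a minor one. Per length (counts per exon base, scaled to a fixed total in each library as TPM), Thbs4 reached 14810 ± 1918 TPM in Mkx flox/+, 12590 ± 1891 in Mkx-CreER/+ and 9322 ± 1950 in Mkx-CreER/flox (SD, with n = 4, 3 and 3). Averaged over the controls it ranked 8 among 32158 genes with a symbol, Comp ranked 29, Thbs1 64, Thbs2 80 and Thbs3 1258. Comp followed Thbs4 at 3763 ± 1339, 3832 ± 1019 and 3647 ± 2387 TPM in the same order of genotypes. Thbs1, at 1926 ± 411.3, 1405 ± 294.1 and 1275 ± 133.7 TPM, and Thbs2, at 1625 ± 340.4, 905.3 ± 122.5 and 620.8 ± 67.96 TPM, were neighbours in this order. Their difference was within the spread of Mkx flox/+, where Thbs2 lay above Thbs1 in library 1 (a Thbs1 to Thbs2 ratio of 0.959), and it exceeded the spread in both Mkx-CreER/+ and Mkx-CreER/flox. Thbs3 was lowest in every genotype, at 107.9 ± 2.636, 81.21 ± 8.579 and 55.7 ± 24.17 TPM.

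**Figure D1:**
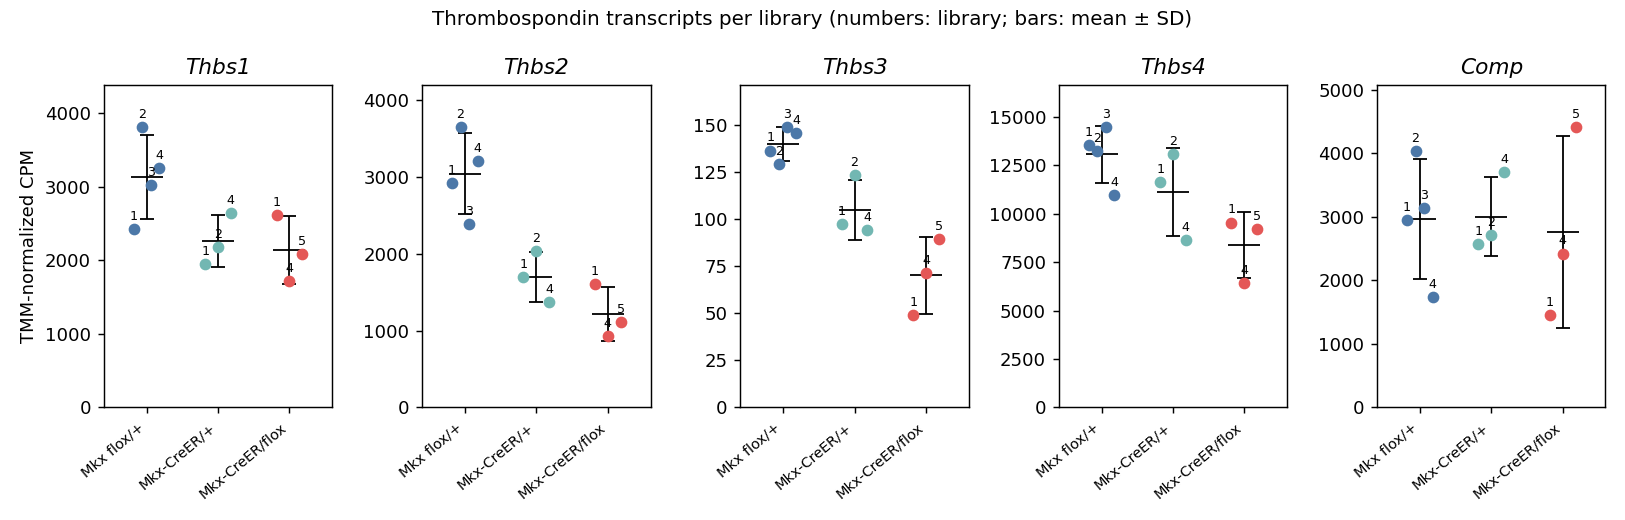
TMM-normalized CPM of each thrombospondin gene (y axis, from 0, a separate scale per gene) in the 10 libraries by genotype (x axis). Points are libraries with their numbers, and black bars give mean ± SD. The 3 Mkx-CreER/flox points of Thbs3 lie between 49.0 and 89.5 CPM, below all 7 controls, while those of Comp spread from 1455 to 4417 CPM.

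Set against the controls' mean, 2 of the 5 genes fell in Mkx-CreER/flox, Thbs2 and Thbs3, and none rose (edgeR quasi-likelihood test, Benjamini-Hochberg adjusted p under 0.05 over all tested genes). Among all 16017 genes 4.65% were called in this comparison, 1.62% as lower. The median log2 fold change was -0.52 over the 5 genes and 0.02 over all tested genes. Thbs1, Thbs4 and Comp did not pass.

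Thbs2, the trimer-forming thrombospondin of connective tissue fibroblasts, was counted at 2918, 3649, 2390 and 3204 CPM in Mkx flox/+ 1 to 4. It stood at 1695, 2029 and 1376 CPM in Mkx-CreER/+ 1, 2 and 4, and at 1605, 923 and 1115 CPM in Mkx-CreER/flox 1, 4 and 5. The floxed controls were high in every library, and Mkx-CreER/flox overlapped with Mkx-CreER/+ through its library 1. With the control genotypes averaged on the log2 scale, edgeR placed Mkx-CreER/flox at 53.4% of the controls. This was a log2 fold change of -0.90 ± 0.24 (SE) with a 95% interval of -1.42 to -0.39 (edgeR adjusted p = 0.0457). An exact permutation test of log2 CPM over the libraries gave p = 0.025 (two-sided, 120 splits, smallest possible 0.00833). In comparisons with both controls this test took the 7 control libraries as 1 group, while edgeR gave each control genotype equal weight.

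Thbs1, the other trimer former, which platelets also carry, was counted at 2427, 3810, 3018 and 3258 CPM in Mkx flox/+ 1 to 4. Mkx-CreER/+ 1, 2 and 4 had 1952, 2184 and 2642 CPM, and Mkx-CreER/flox 1, 4 and 5 had 2619, 1711 and 2085 CPM. The knockout libraries lay within the range of Mkx-CreER/+ except for library 4, which was below it. The log2 fold change was -0.31 ± 0.22 (95% interval -0.79 to 0.16, edgeR adjusted p = 0.463), and the exact permutation p was 0.158. Platelet and megakaryocyte markers were near 0 in every library, at 0.00414% to 0.0122% of counts for 10 genes. Of these, 5 passed the filter and Pf4, which macrophages also express, fell.

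Thbs3, a pentamer former of skeletal tissues, was counted at 136, 129, 149 and 146 CPM in Mkx flox/+ 1 to 4 and at 97.1, 123 and 93.9 CPM in Mkx-CreER/+ 1, 2 and 4. Mkx-CreER/flox 1, 4 and 5 had 49.0, 71.4 and 89.5 CPM. All 3 knockout libraries lay below all 7 controls, as 3.12% of tested genes did, although library 5 came within 5 CPM of the lowest control. The log2 fold change was -0.79 ± 0.18 (95% interval -1.18 to -0.40, edgeR adjusted p = 0.0306), with an exact permutation p of 0.00833, the smallest the design allows.

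Thbs4, the pentamer former of tendon and muscle, was counted at 13549, 13214, 14473 and 10978 CPM in Mkx flox/+ 1 to 4. Mkx-CreER/+ 1, 2 and 4 had 11644, 13065 and 8617 CPM, and Mkx-CreER/flox 1, 4 and 5 had 9543, 6416 and 9187 CPM. The knockout libraries were below every control but Mkx-CreER/+ 4. The log2 fold change of -0.52 ± 0.25 had a 95% interval of -1.05 to 0.00054 and did not pass (edgeR adjusted p = 0.243), while the exact permutation p of this single gene was 0.025.

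Comp, which joins collagen fibrils in tendon and cartilage, was counted at 2955, 4035, 3141 and 1743 CPM in Mkx flox/+ 1 to 4, and at 2575, 2721 and 3715 CPM in Mkx-CreER/+ 1, 2 and 4. Mkx-CreER/flox 1, 4 and 5 had 1455, 2424 and 4417 CPM, which holds both the lowest and the highest value of the series. These libraries differed 3.03-fold among themselves (CV 54.6%), against 1.44-fold in Mkx-CreER/+ and 2.32-fold in Mkx flox/+. The log2 fold change was -0.11 ± 0.32, and its 95% interval of -0.80 to 0.58 leaves room for a change in either direction (edgeR adjusted p = 0.893, exact permutation p = 0.575). Cartilage markers stood at 0.00952% to 0.0247% of counts for 10 genes, with 1 to 3 of them at 0 in a library. Of the 7 cartilage genes tested, Col11a2 fell.

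Of the muscle markers 5 of 20 rose with the knockout, none fell and 15 did not pass, against 3.03% of all genes called higher. Of the tendon markers 6 of 12 fell and 6 did not pass, and all 12 macrophage markers fell, against 1.62% of all genes called lower. Mkx, the gene that the knockout targets, is on the tendon list and among the 6 that fell, so its part in that count was set by the design. The mitochondrial share of counts was higher, by genotype mean, in the order of genotypes in which Thbs2 and Thbs3 became lower. With the mean log2 CPM of the muscle list as a covariate, the log2 fold change was -1.03 for Thbs2 (edgeR adjusted p = 0.105) and -0.83 for Thbs3 (adjusted p = 0.0875), so both calls were lost at fold changes no smaller in size. The part of the tendon, macrophage and mitochondrial shares in these results was not tested. Of the other marker lists, 2 of 10 endothelial, 2 of 10 mural and 1 of 10 Schwann cell genes rose, and 1 of 10 paratenon genes fell. Des is on both the mural and the muscle list, so its rise is counted in each. No called gene was found by edgeR among 4 bone, 8 adipocyte and 5 erythroid genes tested. At an unadjusted p under 0.05 there were 1, 2 and 2 of them, DESeq2 called 0, 1 and 1, and limma voom called 1, 0 and 0. Of all genes, DESeq2 called 1447 and limma voom 2991 against both controls, and the share at an unadjusted p under 0.05 is not given here.

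Both calls against the mean of the controls were lost in most fits that left out 1 library, from whichever genotype. Over all genes edgeR called 64 (without Mkx-CreER/flox 4) to 1114 (without Mkx-CreER/+ 4) in these fits, against 744 with all 10 libraries. Thbs2 stayed past the threshold in 2 of the 10 fits that left out 1 library each, those without Mkx-CreER/+ 4 and without Mkx-CreER/flox 1. Elsewhere its adjusted p lay between 0.0578 without Mkx flox/+ 3 and 0.182 without Mkx-CreER/flox 4 (edgeR), where the log2 fold change was -0.74. Thbs3 stayed past it without Mkx flox/+ 2, Mkx flox/+ 4, Mkx-CreER/+ 4 or Mkx-CreER/flox 5. It was lost without Mkx flox/+ 1 or 3, without Mkx-CreER/+ 1 or 2, and without Mkx-CreER/flox 1 or 4, at adjusted p values of 0.0536 to 0.091 (edgeR) and log2 fold changes of -0.61 to -0.83. Both genes kept a negative fold change in all of these fits.

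**Figure D2:**
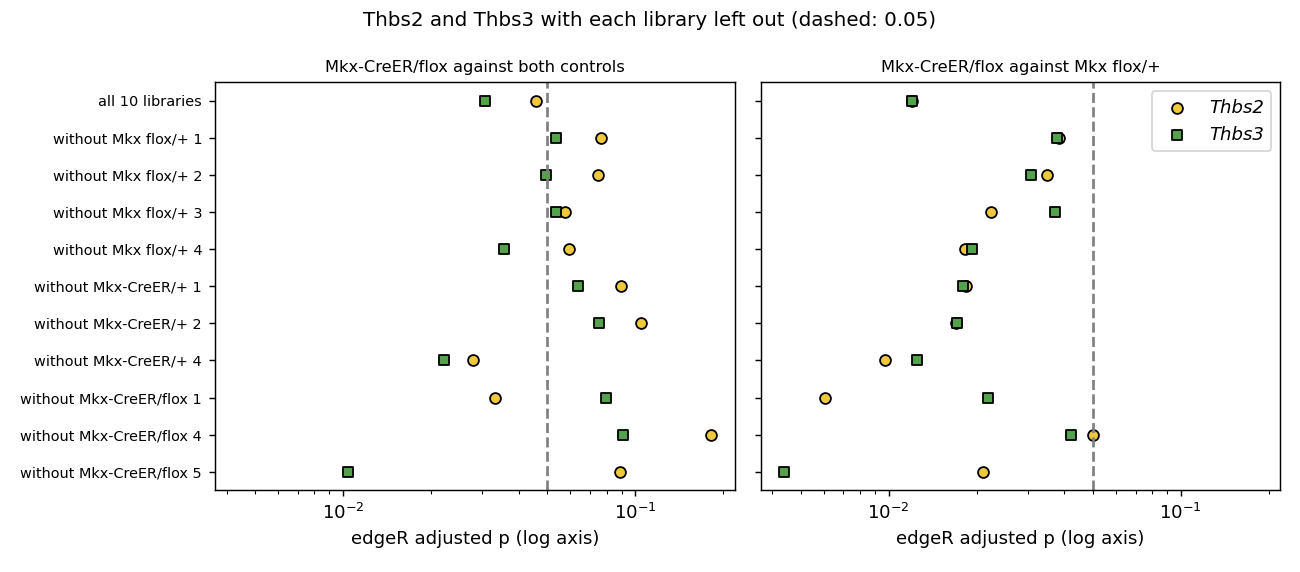
edgeR adjusted p (x axis, log scale) of Thbs2 (circles) and Thbs3 (squares) with all 10 libraries and with each library left out in turn (y axis). The left panel shows Mkx-CreER/flox against both controls, where points cross the dashed line at 0.05, and the right panel shows Mkx-CreER/flox against Mkx flox/+, where no point passes above 0.05.

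Against each control alone, the size of the difference followed the control. The comparisons share the Mkx-CreER/flox libraries. Against Mkx flox/+, Thbs2 and Thbs3 again fell (2 of 5, with 7.27% of all genes called, 2.9% as lower). Thbs2 was lower by a log2 fold change of -1.32 ± 0.26 (edgeR adjusted p = 0.0121) and Thbs3 by -0.999 ± 0.20 (adjusted p = 0.0121). Both stayed past the threshold with each library left out in turn, Thbs2 at an adjusted p of up to 0.0499 without Mkx-CreER/flox 4. The knockout libraries lay below all 4 floxed controls for Thbs2, Thbs3 and Thbs4, as for 9.5% of tested genes, and the exact permutation p of each was 0.0286, the smallest that 35 splits allow. Thbs4 had a log2 fold change of -0.64 ± 0.27 (edgeR adjusted p = 0.168), Thbs1 of -0.55 ± 0.24 (adjusted p = 0.195) and Comp of -0.10 ± 0.36 (adjusted p = 0.905), and none of these passed.

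Against Mkx-CreER/+, which shares the Cre allele, edgeR called 0 of the 5 genes and 0.00624% of all genes, which was Mkx alone. At an unadjusted p under 0.05, which 10.7% of all genes reached, there was 1 of the 5, Thbs3. DESeq2 called 0 and limma voom with sample weights called 1, Thbs2. Thbs3 had a log2 fold change of -0.58 ± 0.21 (edgeR adjusted p = 0.357), and its knockout libraries lay below all 3 Mkx-CreER/+ libraries, as for 6.14% of genes (exact permutation p = 0.1, the smallest that 20 splits allow). Thbs2 stood at -0.49 ± 0.27 (edgeR adjusted p = 0.556) and Thbs4 at -0.41 ± 0.28 (adjusted p = 0.639), with overlapping ranges. Thbs1, at -0.08 ± 0.26, and Comp, at -0.12 ± 0.38, were near 0 with wide errors.

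The controls were also compared with each other. Mkx-CreER/+ libraries lay below all 4 Mkx flox/+ libraries for Thbs2 and Thbs3, as 3.89% of tested genes did, with an exact permutation p of 0.0286 each. The log2 fold change of Mkx-CreER/+ against Mkx flox/+ was -0.84 ± 0.26 for Thbs2 (edgeR adjusted p = 0.72), -0.42 ± 0.20 for Thbs3 (adjusted p = 0.993) and -0.47 ± 0.24 for Thbs1. It was -0.23 ± 0.27 for Thbs4 and 0.02 ± 0.35 for Comp. edgeR called 0 of the 5 and 0 of all genes (0%), with 1 of the 5 (Thbs2) and 4.98% of all genes at an unadjusted p under 0.05. DESeq2 and limma voom also called 0 of the 5, and over all genes they called 34 and 0. The gap between the controls was thus -0.84 for Thbs2, against -0.49 between the knockout and Mkx-CreER/+. For Thbs3 the same values were -0.42 and -0.58. Mkx itself was also lower in Mkx-CreER/+ than in Mkx flox/+, as its CPM values above show.

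**Figure D3:**
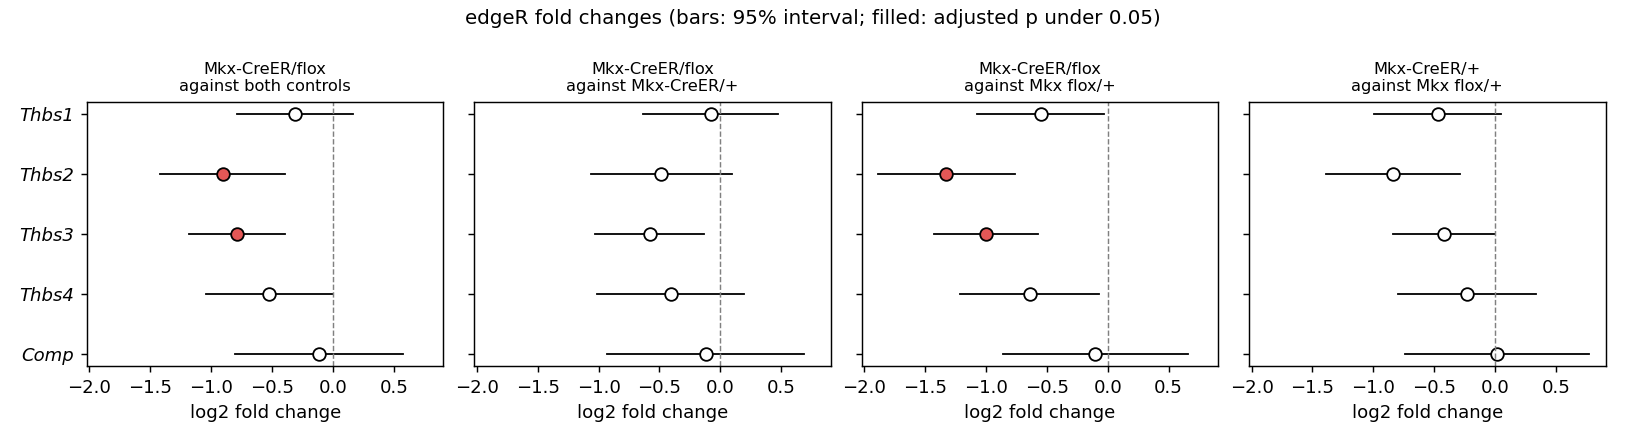
log2 fold changes (x axis) of the 5 genes (rows) in 4 comparisons (panels), from edgeR, with 95% intervals as bars and filled points at an adjusted p under 0.05. Thbs2 and Thbs3 are filled against both controls (-0.90 and -0.79) and against Mkx flox/+ (-1.32 and -0.999), and no point is filled in the other panels.

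The make-up of the family's transcripts per length was dominated by pentamer formers in every library. Thbs3, Thbs4 and Comp together held 83.9% ± 3.25 of family TPM in Mkx flox/+, 87.7% ± 1.44 in Mkx-CreER/+ and 86.8% ± 2.9 in Mkx-CreER/flox (SD, n = 4, 3 and 3), which overlapped. Thbs4 alone held 66.9% ± 3.8, 66.8% ± 7.64 and 63.5% ± 6.97. The share of Thbs2 was 7.39% ± 1.62 in Mkx flox/+ and 4.80% ± 0.433 and 4.36% ± 1.18 in the genotypes with CreER. All 5 genes together took 2.19% ± 0.308, 1.88% ± 0.144 and 1.45% ± 0.306 of counts in the same order of genotypes. The knockout's 1.28%, 1.26% and 1.80% overlapped with the controls through library 5, the library of highest Comp.

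The balance between paired members also varied. Thbs1 per Thbs2 (a ratio of TPM) was 0.959, 1.20, 1.46 and 1.17 in Mkx flox/+ 1 to 4, 1.33, 1.24 and 2.21 in Mkx-CreER/+ 1, 2 and 4, and 1.88, 2.14 and 2.16 in Mkx-CreER/flox 1, 4 and 5. The knockout ratios were above all controls but Mkx-CreER/+ 4. Comp per Thbs4 was 0.169, 0.419 and 0.533 in Mkx-CreER/flox 1, 4 and 5, and 0.176 to 0.478 over the controls, so it did not separate the genotypes.

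**Figure D4:**
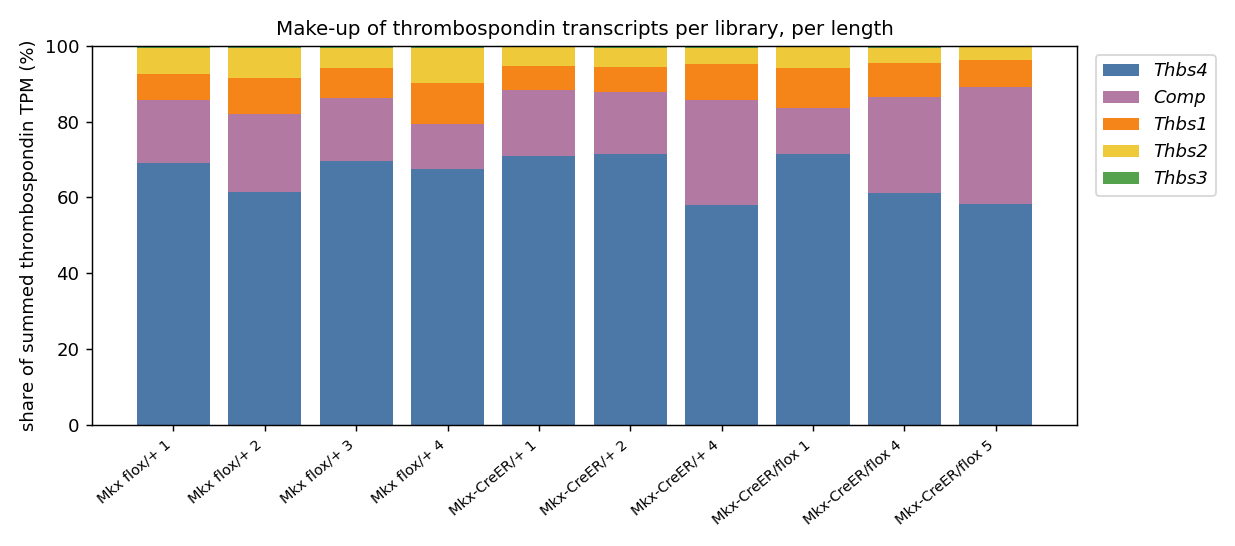
Share of summed thrombospondin TPM (y axis, percent) held by each gene in the 10 libraries (x axis), with 1 bar per library. Thbs4 holds the largest part of every bar, the Thbs2 part is larger in Mkx flox/+ (mean 7.39%) than in Mkx-CreER/flox (mean 4.36%), and the Thbs3 part is too thin to see (under 1%).

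Across the 10 libraries, in log2 CPM, the members paired most closely by Pearson r were Thbs2 with Thbs4 (0.823) and Thbs1 with Thbs2 (0.796). Within genotypes, that is over deviations from the genotype means, these values were 0.54 and 0.482. Thbs3 had r = 0.714 with Thbs2, but -0.365 within genotypes, so the pair moved together between genotypes and not among libraries of 1 genotype. By Spearman rank correlation this pair was the closest (rho = 0.818), ahead of Thbs2 with Thbs4 and Thbs3 with Thbs4 (0.794 each). Comp had r = 0.375 with Thbs3 (0.511 within genotypes), 0.146 with Thbs4, 0.039 with Thbs1 and -0.049 with Thbs2. These correlations are a description of 10 libraries that share genotype, scaling and tissue make-up.

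Outside the family, the genes with the most similar profile (of 12376 compared over the 10 libraries) differed between members. For Thbs2 they were Htra1, a secreted serine proteinase (r = 0.969), Klhl42 (r = 0.965) and Nupr1, a stress-induced chromatin protein (r = 0.965). Htra1 read 595 ± 41.7, 312 ± 75.4 and 189 ± 59.3 CPM in Mkx flox/+, Mkx-CreER/+ and Mkx-CreER/flox (SD, n = 4, 3 and 3). For Thbs3 they were Itm2c (r = 0.987), Tmem115 (r = 0.987) and Man2b1, the lysosomal alpha-mannosidase (r = 0.984).

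For Thbs4 the most similar genes were Ms4a7, a macrophage membrane protein (r = 0.975), Cyfip1 (r = 0.966) and S100a6 (r = 0.959). Ms4a7 was at 24.6 ± 4.97, 20.4 ± 6.6 and 10.2 ± 2.56 CPM in the same order of genotypes. For Thbs1 they were Nalcn (r = 0.899), Sestd1 (r = 0.898) and Dnajc1 (r = 0.892), and for Comp Snrnp70 (r = 0.960), Anxa11os (r = 0.947) and Kmt2d (r = 0.945). The genes of Comp encode a splicing factor, an antisense RNA and a histone methyltransferase. Over the 15 genes, r within genotypes ranged from 0.818 (Htra1) to 0.977 (Man2b1). All were picked for likeness over the same libraries, so a difference between genotypes like the member's is part of the choice and no separate result. As a description, their log2 fold changes against both controls ran from -1.19 (Htra1) to 0.06 (Kmt2d). Reads of Anxa11os and of its partner on the other strand cannot be told apart.

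Other genes were read from 7 lists: receptors, matrix partners, proteinases, folding genes, TGF-beta and YAP genes, immediate-early genes, and the metaxins that lie next to thrombospondin genes. Among 13 receptors and surface binding proteins, Itga6, a laminin-binding integrin subunit, and Cacna2d1, the calcium channel subunit that binds thrombospondins, rose and none fell. Against both controls 3.03% of all genes were called higher. Itga6 read 68.4 ± 9.52, 79.3 ± 13.3 and 112 ± 13.3 CPM in Mkx flox/+, Mkx-CreER/+ and Mkx-CreER/flox, with every knockout library above every control (log2 fold change 0.60 ± 0.15, edgeR adjusted p = 0.0394). The call held in 1 of the 10 fits with 1 library left out, that without Mkx flox/+ 4, and the adjusted p reached 0.136 without Mkx-CreER/flox 4 (edgeR). Itga6 stood at 0.63 with the muscle covariate (edgeR adjusted p = 0.128), 0.56 with upper-quartile scaling (adjusted p = 0.0566) and 0.40 with a block by column number (adjusted p = 0.287). Cacna2d1, which muscle expresses strongly, read 162 ± 38.7, 192 ± 53.4 and 351 ± 187 CPM (log2 fold change 0.99 ± 0.27, edgeR adjusted p = 0.0492). Its call held in 2 of the 10 fits with 1 library left out, without Mkx-CreER/+ 4 and without Mkx-CreER/flox 5. Over all 20 alternative settings the call was lost in 15. The log2 fold change was 0.44 without Mkx-CreER/flox 1 (adjusted p = 0.342) and 0.63 with the muscle covariate (adjusted p = 0.326). Cd36, Cd47, Lrp1 and the 7 other genes of the list did not pass, nor did Sdc1 (-0.69, adjusted p = 0.0656), which fell against Mkx flox/+ alone. The list's median log2 fold change was 0.16.

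Of the matrix partners, 11 of 14 genes were tested, 3 fell and none rose, with a median log2 fold change of -0.52. Of all genes, 1.62% were called lower against both controls. Matn2, a matrilin, an adaptor protein of collagen networks, had 467, 416, 347 and 484 CPM in Mkx flox/+ 1 to 4. It had 261, 244 and 200 CPM in Mkx-CreER/+ 1, 2 and 4, and 105, 131 and 138 CPM in Mkx-CreER/flox 1, 4 and 5. The 3 genotypes did not overlap, and Matn2 fell (log2 fold change -1.35 ± 0.18, edgeR adjusted p = 0.00467), a call that all 20 alternative settings kept. The type I collagen chains Col1a1 (-1.74 ± 0.36, adjusted p = 0.0224) and Col1a2 (-1.47 ± 0.33, adjusted p = 0.0282) also fell. Both are on the tendon marker list too, so their fall is counted in each list. Over all 20 alternative settings Col1a1 lost its call in 6 and Col1a2 in 7. Each collagen gene stayed past the threshold in 6 of the 10 fits that left out 1 library. Col1a1 was lost without any of Mkx-CreER/+ 1 and 2 and Mkx-CreER/flox 1 and 4, and Col1a2 without any of Mkx flox/+ 1, Mkx-CreER/+ 1 and 2 and Mkx-CreER/flox 4, at adjusted p values of up to 0.0918 (edgeR).

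Among 10 TGF-beta ligands and targets of TGF-beta or YAP, 1 fell and 1 rose, against 1.62% of all genes called lower and 3.03% called higher. Tgfbi, a TGF-beta induced matrix protein, read 955 ± 79.8, 709 ± 195 and 337 ± 40.2 CPM in Mkx flox/+, Mkx-CreER/+ and Mkx-CreER/flox (log2 fold change -1.29 ± 0.21, edgeR adjusted p = 0.0138, and 0.0538 without Mkx-CreER/flox 4). Ankrd1, a YAP target that striated muscle also expresses, read 10.5 ± 3.34, 23.4 ± 14 and 49.5 ± 4.34 CPM (1.66 ± 0.30, adjusted p = 0.0175). Among the fits with 1 library left out, the call of Ankrd1 was lost without Mkx-CreER/+ 1 and without Mkx-CreER/flox 1 or 4, at adjusted p values of 0.0559 to 0.0579 (edgeR). Over all 20 alternative settings it was lost in 5, and the lowest log2 fold change was 1.37.

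The remaining lists held no call against both controls by edgeR. They were 6 tested proteinases that cleave thrombospondins or Comp, 9 folding genes of the endoplasmic reticulum, 14 immediate-early genes and 3 metaxins. In that order there were 1, 1, 4 and 1 genes at an unadjusted p under 0.05, DESeq2 called 0, 0, 3 and 0, and limma voom called 1, 0, 5 and 1. In the same comparison DESeq2 called 1447 of all genes and limma voom 2991, and the share of all genes at an unadjusted p under 0.05 is not given here. Hspa5, an endoplasmic reticulum chaperone, was among the genes without a call (folding list median 0.07). Against Mkx-CreER/+ alone, edgeR called no gene of any of the 7 lists.

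**Figure D5:**
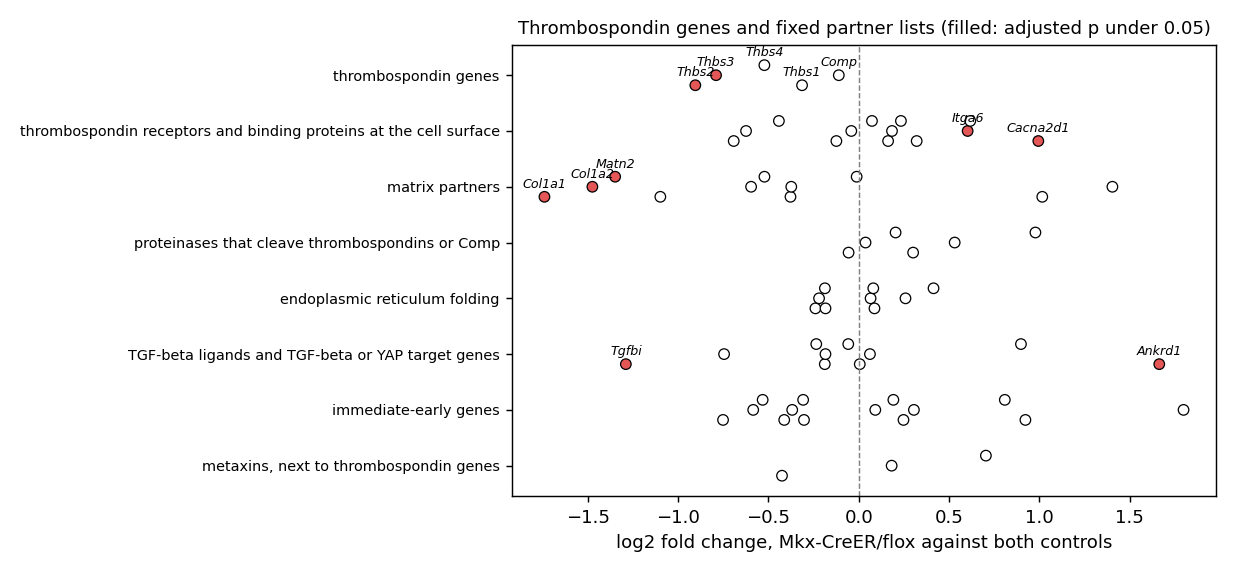
log2 fold change (x axis) of Mkx-CreER/flox against both controls for the thrombospondin genes and the tested genes of 7 partner lists (rows), 1 point per gene, filled at an edgeR adjusted p under 0.05. The filled points are Thbs2 and Thbs3, Itga6 and Cacna2d1 to the right, Col1a1, Col1a2 and Matn2 to the left, and Tgfbi (-1.29) and Ankrd1 (1.66) on opposite sides.

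On the chromosome, none of the 9 neighbouring genes that could be tested passed against both controls (edgeR). Mtx1, a mitochondrial import protein whose annotated span covers Thbs3 on the other strand, read 13.8 ± 2.03, 15 ± 3.51 and 10.8 ± 2.38 CPM in Mkx flox/+, Mkx-CreER/+ and Mkx-CreER/flox (log2 fold change -0.43 ± 0.22, adjusted p = 0.303). Its level was far below that of Thbs3, and it gained a call, as lower, in 1 of 20 alternative settings. On the other side of Thbs3, Muc1 had -0.66 ± 0.45 (edgeR adjusted p = 0.443). Smoc2 and Wdr27 flank Thbs2 and had 0.41 ± 0.19 (adjusted p = 0.234) and -0.997 ± 0.51 (adjusted p = 0.287), with opposite signs. Mtx3 and Serinc5 flank Thbs4 (0.18 and -0.13), Upf1 and Crtc1 flank Comp (0.06 and 0.21), and Rasgrp1 lies before Thbs1 (-0.51), while Fsip1 on its other side was below the filter.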

How the data were processed

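The authors deposited 1 table of raw counts per Ensembl gene (32285 genes, 10 libraries), made with fastp and STAR on mm10 per the submitters' processing notes, which give no version. The sources used here give no counting tool, annotation or strand setting. Columns of Mkx flox/+ correspond to samples by number, and the others by genotype only. Names, positions and exon lengths came from GENCODE vM21. In R 4.3.3, edgeR 4.0.16 (filterByExpr by genotype, TMM, robust quasi-likelihood fit of all 10 libraries, Benjamini-Hochberg adjustment over 16017 genes, threshold 0.05) compared Mkx-CreER/flox with the equally weighted mean of both controls, with each control, and the controls with each other. TPM here divides counts by summed exon length. Permutation tests were exact and two-sided, and those against both controls pooled the control libraries without weighting by genotype. The variance between replicate libraries was 23.6 to 119 times that of counting error (chi-square per degree of freedom). Alternatives were DESeq2 1.42.0, limma 3.58.1 voom, other scalings and filters, a muscle covariate, a block by column number, and each library left out. The method was also run on simulated counts without a difference between the controls, and the outcome is not given here.

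The members and lists were chosen with earlier results of these data known. Named genes are the 5 members, Mkx, up to 4 called genes of each list by smallest p, the protein-coding neighbours, and for each member the 3 genes of highest Pearson r. Sdc1, Pf4, Col11a2, Des and Hspa5 were named after their values were seen.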

Additional observations from a re-analysis of the deposited data

How the results depend on the processing

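Over all settings and comparisons, 361 of 400 values of the 5 genes kept direction and side of the threshold, 20 lost a call, 6 gained one and 13 changed sign. Most of these values had no call to lose, since only Thbs2 and Thbs3 were called, against both controls and against Mkx flox/+. Against both controls, Thbs2 lost its call in 11 of 20 alternative settings and Thbs3 in 8 of 20. Against Mkx flox/+, Thbs2 lost it in 0 of 20 and Thbs3 in 1 of 20. Against both controls the count of called thrombospondin genes (2) was 4 by limma voom, 0 with the muscle covariate, 0 with a replicate block by column number, 1 with the 7 controls as 1 group (Thbs3), and 0 to 2 with 1 library left out. Against Mkx-CreER/+ limma voom called 1 (Thbs2, -0.81, adjusted p = 0.0292). Against Mkx flox/+ the count (2) was 4 by limma voom and 1 with the muscle covariate, where Thbs3 stood at -1.06 (edgeR adjusted p = 0.0548), and DESeq2 called 3, adding Thbs4. limma voom added Thbs1 (-0.48, adjusted p = 0.0434) and Thbs4 (-0.78, adjusted p = 0.00532) against both controls. Over all genes DESeq2 called 1447, 123, 1830 and 34, and limma voom 2991, 715, 2853 and 0, for the comparisons with both controls, with Mkx-CreER/+, with Mkx flox/+ and between the controls, where edgeR called 744, 1, 1165 and 0. Against both controls edgeR called 66 with the muscle covariate, 119 with the block, and 64 (without Mkx-CreER/flox 4) to 1114 (without Mkx-CreER/+ 4) with 1 library left out. Against Mkx flox/+ these counts were 169, 537 and 455 (without Mkx flox/+ 1) to 1585 (without Mkx-CreER/flox 5).

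Comp changed sign with the muscle covariate, to 0.1809, 0.0464 and 0.3155 in the comparisons with both controls, with Mkx-CreER/+ and with Mkx flox/+. With 1 library left out it ran from -0.6342 to 0.1758, -0.6440 to 0.1662 and -0.6244 to 0.1853 there, and from -0.1639 to 0.2011 between the controls. Thbs1 against Mkx-CreER/+ was 0.01 with the block and -0.2714 to 0.0556 with 1 library left out. Among neighbours, Rasgrp1, Upf1 and Crtc1 were 0.3344, -0.1484 and -0.1177 with the block, and with 1 library left out Upf1 ran from -0.1087 to 0.2496, Crtc1 from -0.0621 to 0.4790 and Serinc5 from -0.3129 to 0.0168. The cause of these changes was not tested.

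Column numbers did not pair the libraries: the 7 same-numbered pairs had r of -0.072 to 0.216, and 2 of 6 libraries correlated best with their own number. With the replicate block, Thbs2 stood at -0.82 (edgeR adjusted p = 0.169) and Thbs3 at -0.96 (adjusted p = 0.0618) against both controls, and the count against Mkx flox/+ was 2. Depth limits none of the 5 genes, since the lowest count of a member in a library was 542 (Thbs3). The number of libraries limits the precision: groups of 3 and 3 cannot give a permutation p under 0.1.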
